A study of Mus musculus with 4 samples.

Results

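Plasma cell secretory marker genes are a set of 9 named mouse genes: Jchain, Mzb1, Sdc1, Derl3, Fkbp11, Txndc5, Creld2, Ell2 and Tnfrsf17. They were chosen by name, with earlier results of these data known. Of the 9, 8 had a row in the tables of both RNA libraries, among 13792 genes listed there. Tnfrsf17 had no row under its symbol or its Ensembl identifier, so it has no value here. RNA came from cultured B cells of C57BL/6 mice, an inbred laboratory strain. The cells were taken as naive B cells and infected with a retrovirus. Culture was with antibodies to IgM and CD40, which mimic the signals of antigen and of helper T cells. RVKM-Ascl2 carried the transcription factor gene Ascl2, and RVKM-Empty, called the empty vector here, carried no insert. Each group had 1 library, so no value has a replicate error, no test was possible, and a difference between the libraries may come from the cultures or libraries themselves.

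A B cell that becomes a plasma cell turns its metabolism over to making and exporting antibody. Its endoplasmic reticulum (ER) expands and fills with folding enzymes, with proteins that remove misfolded chains, and with helpers of antibody assembly, while the secreted form of the heavy chain message replaces the membrane form. The regulators Blimp-1 (gene Prdm1), Xbp1 and Irf4 drive this change, and surface receptors such as syndecan-1 (gene Sdc1) and BCMA (gene Tnfrsf17) mark the cells that have made it. In bulk RNA, more cells of this kind and more RNA of these genes per cell cannot be told apart.

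The deposited values are abundances per gene that summed to 763932 in the Ascl2 library and 750692 in the empty-vector library. Ascl2 itself was at 29.4 in the Ascl2 library and at 0.0809 in the empty-vector library, so the direction goes with the labels. All 8 B cell markers examined were listed, with summed values of 2769 in the Ascl2 library and 3083 in the empty-vector library. Myeloid markers (9 of 15 listed) summed to 61.4 in the Ascl2 library and 53.8 in the empty-vector library. T cell markers (3 of 13 listed) summed to 37.5 and 39.1 in the Ascl2 and empty-vector libraries, and the defining genes Cd3e, Cd3d, Cd3g, Cd4 and Cd8a had no row. Stromal and packaging-line markers (7 of 12 listed) summed to 528 in the Ascl2 library and 622 in the empty-vector library, most of it Thy1 and Vim. Of the others, Sparc was at 4.42 with Ascl2 and 2.19 with the empty vector. Col1a1, Col1a2, Fn1 and Lum were under 1 in both libraries, and Col3a1, Acta2, Pdgfrb, Dcn and Tagln had no row. The part of these other cell types in the results was not tested.

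Upstream sequences of the members are shown because XBP1 and the related factor ATF6 are known to act on ER genes through short promoter elements, and because Ascl2 is known to bind E-boxes. The sequences run 5′ to 3′ over the 250 bases before the annotated start, from RefSeq promoter windows on GRCm38.p6, the assembly also called mm10. Capitals mark matches, on either strand, to any of 5 motifs. These were the E-box CANNTG, its special cases CAGCTG and also CAGGTG, the motif ACGTGG, and the ER stress response element, which is CCAAT followed after 9 unspecified bases by CCACG. Jchain and Fkbp11 are shown for their log2 ratios, the highest and the next highest of the set, and Derl3 and Creld2 because they hold the ER stress response element.
Jchain, chr5:88527898-88528147, minus strand: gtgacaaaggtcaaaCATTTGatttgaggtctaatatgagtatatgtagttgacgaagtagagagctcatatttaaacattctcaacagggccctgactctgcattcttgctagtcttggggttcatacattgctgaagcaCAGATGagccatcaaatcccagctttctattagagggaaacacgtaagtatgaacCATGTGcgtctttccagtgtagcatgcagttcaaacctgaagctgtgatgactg
Fkbp11, chr15:98728199-98728448, minus strand: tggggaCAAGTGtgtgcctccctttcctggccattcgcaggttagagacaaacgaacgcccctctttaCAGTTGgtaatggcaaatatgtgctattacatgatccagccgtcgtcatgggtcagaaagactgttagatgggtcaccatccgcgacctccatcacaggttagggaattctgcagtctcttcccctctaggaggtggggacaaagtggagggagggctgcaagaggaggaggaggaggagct
Derl3, chr10:75893148-75893397, plus strand: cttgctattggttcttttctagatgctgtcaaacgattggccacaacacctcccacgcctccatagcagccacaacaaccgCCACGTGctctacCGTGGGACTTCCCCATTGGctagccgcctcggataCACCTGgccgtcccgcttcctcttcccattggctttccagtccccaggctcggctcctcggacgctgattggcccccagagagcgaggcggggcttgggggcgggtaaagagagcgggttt
Creld2, chr15:88819396-88819645, plus strand: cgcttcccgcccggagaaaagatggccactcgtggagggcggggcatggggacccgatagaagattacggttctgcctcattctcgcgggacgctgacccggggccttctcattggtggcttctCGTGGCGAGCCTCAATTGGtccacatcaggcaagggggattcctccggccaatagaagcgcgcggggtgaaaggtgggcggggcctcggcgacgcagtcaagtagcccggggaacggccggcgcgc

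Windows were found for 8 members, Mzb1 not among them. The Tnfrsf17 window (chromosome 16, 11313559 to 11313808) lies inside the gene span given here, 11313232 to 11320074, and not before it. Its 2 matches to CANNTG are counted below all the same. The ER stress response element matched in 2 of the 8, Derl3 and Creld2, on the minus strand of the window in both. It lay 156 to 138 bases before the start in Derl3 and 126 to 108 bases before it in Creld2. Of all 32851 windows in the table, 37 held this element, which is 0.113%. ACGTGG matched in the outermost window of 1 of the 8, Derl3, overlapping an E-box, against 6.91% of all windows. It also matched in a further inner window of Txndc5, which has 3 windows. A count by gene over several windows is not like that share by window. CANNTG matched in 7 of the 8 members, all but Ell2, against 66.2% of all windows, and the Creld2 match lies inside its ER stress response element. CAGGTG matched only in Derl3 among these 8, against 17.2% of all windows, and CAGCTG in none of them, against 13.0% of all windows. A match is a run of letters and does not show that a factor binds there, and the 2 chromatin samples of the series were not analysed here.

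**Figure D1:**
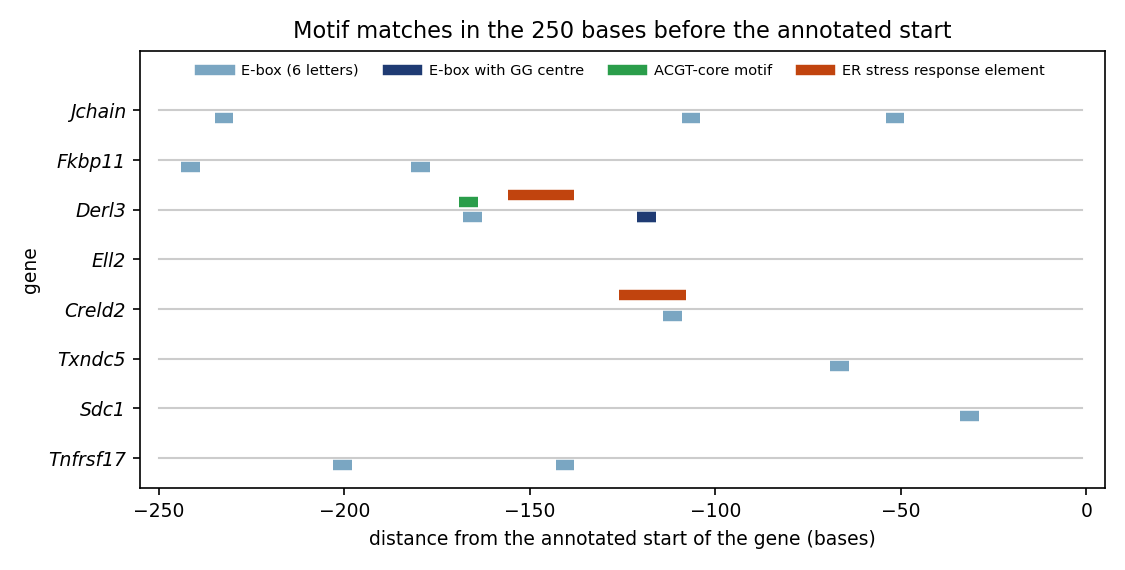
Motif matches in the 250-base promoter windows of 8 members, with the distance from the start that each window precedes along the x axis and 1 line per gene. For Tnfrsf17 that start lies inside the gene span given in the text, so its matches are not upstream of that span. The long bars of the ER stress response element appear in Derl3 and Creld2 and in no other line, and Ell2 has no match.

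Across the set, 7 of the 8 measured members were higher in the Ascl2 library and Sdc1 was lower. The difference was uneven: Jchain was 2.67 times as high, Fkbp11 1.99 times and Derl3 1.82 times, while Ell2, Creld2, Txndc5 and Mzb1 lay between 1.07 and 1.24 times. The log2 ratio used throughout takes 1 added to the Ascl2 value over 1 added to the value of the empty vector, a pseudocount that understates the differences of low genes. By this ratio, 1 of the 8 members, Jchain, was at least 2-fold higher, against 1.53% of the 12283 genes that reached a value of 1 in at least 1 library. No member was at least 2-fold lower, against 0.716% of those genes. At 1.5-fold, 3 members were higher, against 5.01% of all genes, and 0 were lower, against 4.31%. A ratio above 0 was found for 7 of 8 members and for 48.4% of all genes. The members' median log2 ratio was 0.27, beside −0.01 over all genes.

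**Figure D2:**
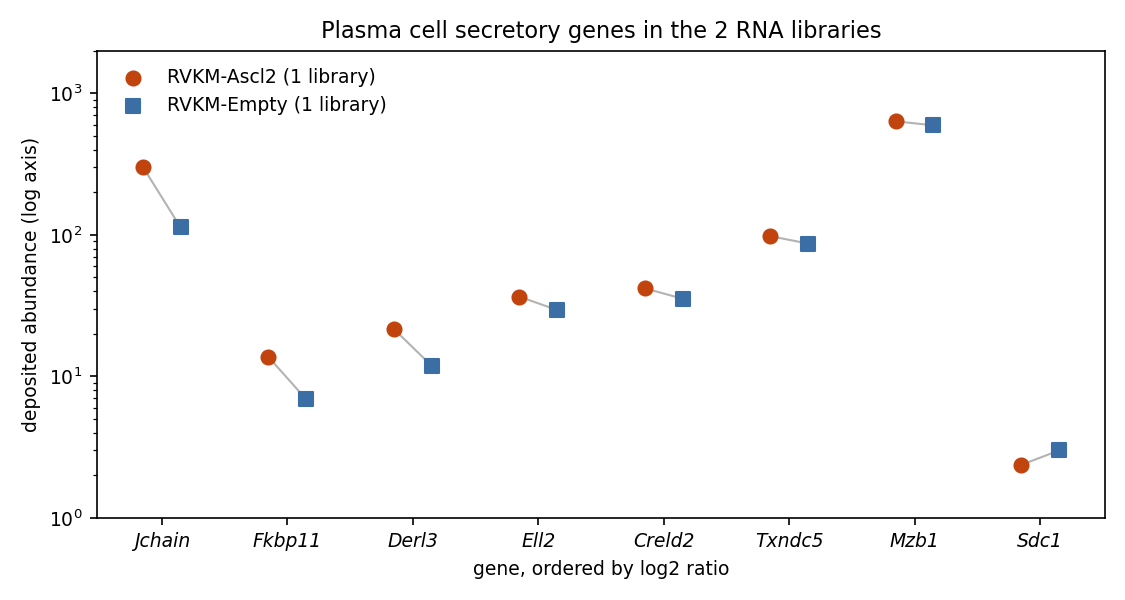
Deposited abundance of the 8 measured members in the RVKM-Ascl2 library (circles) and the RVKM-Empty library (squares) on a log axis, 1 library each, ordered by log2 ratio. Jchain, Fkbp11 and Derl3 show the steepest connecting lines, Mzb1 is nearly level at 634 and 594, and Sdc1 slopes the other way.

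The members' summed abundance was 1149 in the Ascl2 library and 880.2 in the empty-vector library, or 0.150% and 0.117% of all values in the Ascl2 and empty-vector libraries. Mzb1 made up 55.2% of that sum in the Ascl2 library and 67.5% in the empty-vector library. Jchain made up 26.2% of it with Ascl2 and 12.8% with the empty vector. Without Mzb1 the sums were 515 in the Ascl2 library and 286 in the empty-vector library. Without Mzb1 and Jchain they were 214 in the Ascl2 library and 173 in the empty-vector library, so the remaining 6 genes together were 1.23 times as high. By level, the order was Mzb1, Jchain, Txndc5, Creld2, Ell2, Derl3, Fkbp11 and Sdc1 in both libraries, if the values are scaled by gene length. With 1 library a group, no spread is known against which neighbours in that order could be set.

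Jchain (chromosome 5, 88519809 to 88527897) encodes the joining chain that links IgM and IgA into polymers. It was at 301 in the Ascl2 library and at 113 in the empty-vector library, a log2 ratio of 1.41. That ratio ranked 58 of 12283 from the top. Among the 841 genes whose mean level lay within 2-fold of its own, 4 had a ratio as high or higher, Jchain included. Of those 841 genes, 77 were immunoglobulin genes, and 0 of these 77 had a ratio as high as Jchain. The central 90% of log2 ratios there reached up to 0.94, or up to 0.36 with the immunoglobulin genes left out. Its promoter, shown above, holds 3 E-boxes and neither the ACGTGG motif nor the ER stress response element.

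Most of the antibody chains that Jchain and Mzb1 serve were also higher, by less. Ighm, the constant region of IgM, was at 7629 in the Ascl2 library and at 4124 in the empty-vector library (log2 ratio 0.89). Igkc, the constant region of the kappa light chain, was at 17438 with Ascl2 and at 10479 with the empty vector (0.73). The Jchain value was 3.95% of the Ighm value in the Ascl2 library and 2.73% of it in the empty-vector library, so Jchain exceeded its partner's difference by 1.44 times. Iglc1, a lambda constant region, was at 996 in the Ascl2 library and at 733 in the empty-vector library (0.44). Iglc2, another lambda constant region, was at 697 with Ascl2 and at 591 with the empty vector (0.24). Iglc3, a further one, was lower, at 988 in the Ascl2 library and at 1126 in the empty-vector library (−0.19). Igha, the constant region of IgA, was at 0.973 with Ascl2 and at 0.969 with the empty vector, under the filter. Of 10 assembly and partner genes that passed the filter, 7 had a ratio above 0, against 48.4% of all genes. None of the 10 was past 2-fold in either direction, and their median log2 ratio was 0.34.

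Mzb1 (chromosome 18, 35647265 to 35650266) encodes an ER protein of B cells that helps IgM assemble and works with the chaperone GRP94. It was at 634 in the Ascl2 library and at 594 in the empty-vector library, a log2 ratio of 0.09, and 35.8% of all genes had a ratio at least that high. With the trend of ratio with genomic span removed, its log2 ratio was 0.27. Hsp90b1, which encodes GRP94, was at 455 in the Ascl2 library and at 330 in the empty-vector library (0.46). Mzb1 thus stood high in both libraries, at 1.07 times with Ascl2 what it was with the empty vector.

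Fkbp11 (chromosome 15, 98724368 to 98728198) encodes a proline isomerase of secretory cells that sits in the ER. It was at 13.7 in the Ascl2 library and at 6.89 in the empty-vector library, a log2 ratio of 0.90 that fell just short of 2-fold and ranked 248 of 12283. Among 4289 genes of like level, 49 had a ratio as high or higher, Fkbp11 included, and 15 of these were immunoglobulin genes. Its relatives went both ways. Fkbp2 was at 57.7 in the Ascl2 library and at 81.9 in the empty-vector library (−0.50). Fkbp7 was at 1.72 with Ascl2 and at 2.57 with the empty vector (−0.39), while Fkbp9, under the filter, was at 0.599 in the Ascl2 library and at 0.442 in the empty-vector library (0.15). Fkbp10 and Fkbp14 had no row. The Fkbp2 value was 4.21 times the Fkbp11 value in the Ascl2 library and 11.9 times it in the empty-vector library.

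Txndc5 (chromosome 13, 38500266 to 38528824) encodes a protein disulfide isomerase, an enzyme that forms the sulfur bridges of secreted proteins. It was at 97.8 in the Ascl2 library and at 86.8 in the empty-vector library (log2 ratio 0.17). Among genes of the ER folding list with a related name, Txndc16 had the highest ratio, at 29.6 in the Ascl2 library and at 22.9 in the empty-vector library (0.36). Txndc11 was at 24.5 with Ascl2 and at 21.6 with the empty vector (0.17). Txndc12 was at 38.3 in the Ascl2 library and 38.4 in the empty-vector library (−0.01), and Txndc15 was at 11.4 in the Ascl2 library and 13.8 in the empty-vector library (−0.26). None of these lay past 1.5-fold in either direction.

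Creld2 (chromosome 15, 88819646 to 88826681) encodes an ER protein with EGF-like repeats that is induced by ER stress. It was at 41.9 in the Ascl2 library and at 35.4 in the empty-vector library (log2 ratio 0.24), and 20.8% of all genes had a ratio at least as high. Its paralog Creld1 was at 5.47 in the Ascl2 library and at 5.43 in the empty-vector library (0.01). Thus Creld2 was 7.65 times the level of Creld1 with Ascl2 and 6.51 times with the empty vector, if the values are scaled by gene length.

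Around these 3 folding members, the wider list of ER folding enzymes and chaperones differed modestly. Of 31 that passed the filter, 22 had a ratio above 0, against 48.4% of all genes. None of the 31 was past 2-fold in either direction, and their median log2 ratio was 0.17. Dnajb9, a cochaperone of the ER, was at 25.8 in the Ascl2 library and at 15.3 in the empty-vector library (0.72). Ero1lb, an oxidase that recharges disulfide isomerases, was at 42.0 with Ascl2 and at 25.6 with the empty vector (0.69).

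Derl3 (chromosome 10, 75893398 to 75895941) encodes derlin-3, part of the channel through which misfolded proteins leave the ER for degradation. It was at 21.6 in the Ascl2 library and at 11.9 in the empty-vector library, a log2 ratio of 0.81 that ranked 301 of 12283. Among 4569 genes of like level, 50 had a ratio as high or higher, Derl3 included, and 26 of these were immunoglobulin genes. The other derlins differed less: Derl1 was at 41.1 in the Ascl2 library and at 37.1 in the empty-vector library (0.14), and Derl2 was at 26.6 with Ascl2 and at 22.6 with the empty vector (0.22). Derl3 was 52.5% of the Derl1 level in the Ascl2 library and 32.0% of it in the empty-vector library, if the values are scaled by gene length.

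The other genes of ER-associated degradation went both ways. Of 25 measured, 16 had a ratio above 0, against 48.4% of all genes. None of the 25 was past 2-fold in either direction, and their median log2 ratio was 0.07. Edem1, which directs misfolded glycoproteins to degradation, was at 64.2 in the Ascl2 library and at 41.1 in the empty-vector library (0.63). Its relative Edem3 was at 9.19 with Ascl2 and at 5.75 with the empty vector (0.59). The ubiquitin enzyme gene Ube2g2 was at 18.4 in the Ascl2 library and at 23.9 in the empty-vector library (−0.36), and the ligase gene Rnf5 was at 24.4 with Ascl2 and 30.9 with the empty vector (−0.33).

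Genes whose promoter window holds the ER stress response element, like Derl3 and Creld2, were mostly higher in the Ascl2 library. Of 15 such genes that passed the filter, 12 had a ratio above 0, against 48.4% of all genes that passed it. The median log2 ratio of the 15 was 0.24, beside −0.02 for the 8629 filtered genes with a window. Without Derl3 and Creld2, 10 of 13 were above 0 with a median of 0.22. The group included the chaperone genes Hspa5, at 414 in the Ascl2 library and 322 in the empty-vector library (0.36), and Canx, at 166 with Ascl2 and 126 with the empty vector (0.39). Syvn1, the ubiquitin ligase of the degradation pathway, went against it at 52.3 in the Ascl2 library and 64.6 in the empty-vector library (−0.30). The only one past 2-fold was Xlr3a, at 0.502 with Ascl2 and 2.25 with the empty vector, and its paralog Xlr3b was at 5.09 with Ascl2 and 2.74 with the empty vector. How reads were divided between these near copies is not known. Of the 15, 6 belong to the list of ER folding enzymes and chaperones, so the counts overlap. The 5 genes named from this group were chosen after their values were seen.

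**Figure D3:**
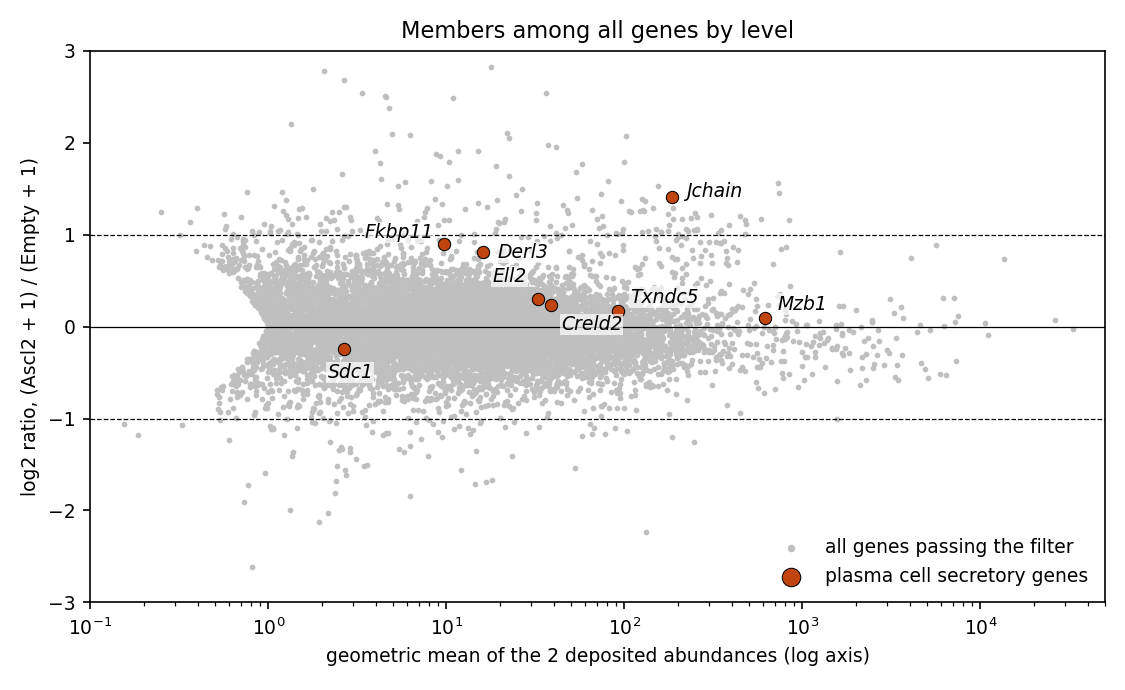
Log2 ratio of each gene against the geometric mean of its deposited abundances in the RVKM-Ascl2 and RVKM-Empty libraries (log axis), with all 12283 genes that passed the filter in grey and the 8 members in orange. Dashed lines mark 2-fold, 9 genes lie beyond the axes, and Jchain lies above the upper line. Fkbp11 and Derl3 lie under that line, and some grey points lie above them.

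Ell2 (chromosome 13, 75707484 to 75772361) encodes a transcription elongation factor that favours the secreted form of the Ighm message in plasma cells. It was at 36.6 in the Ascl2 library and at 29.4 in the empty-vector library, a log2 ratio of 0.31, and 15.4% of all genes had a ratio at least as high. Its paralog Ell was at 7.11 in the Ascl2 library and at 8.87 in the empty-vector library (−0.28). Ell3 was at 1.44 with Ascl2 and at 0.836 with the empty vector (0.41). The tables give 1 value per gene, so the secreted and membrane forms of Ighm were not separated.

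Partners of Ell2 went both ways. Among 16 genes of the super elongation complex and Ell partners, 8 had a ratio above 0 and 8 below, against 48.4% of all genes above. None of the 16 was past 2-fold, and their median log2 ratio was −0.01 (mean 0.02). Eaf2, which binds Ell proteins, was at 20.2 in the Ascl2 library and at 14.01 in the empty-vector library (0.50). Hexim1, an inhibitor of the elongation kinase P-TEFb, was at 6.06 with Ascl2 and at 11.1 with the empty vector (−0.78).

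Sdc1 (chromosome 12, 8771396 to 8793716) encodes syndecan-1, also known as CD138, the heparan sulfate proteoglycan used to sort plasma cells. It was at 2.37 in the Ascl2 library and at 2.99 in the empty-vector library, a log2 ratio of −0.25. It was the lowest of the 8 measured members in both libraries, if the values are scaled by gene length. Among 2686 genes of like level, 573 had a ratio as low or lower, and the central 90% of those genes ran from −0.61 to 0.66, so a difference of this size was common there. Sdc3 was at 3.89 in the Ascl2 library and at 2.22 in the empty-vector library (0.60), Sdc4 was at 75.3 with Ascl2 and at 65.0 with the empty vector (0.21), and Sdc2 had no row.

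Genes for building heparan sulfate, counted with the other syndecans, gave 8 of 17 with a ratio above 0, against 48.4% of all genes. None of the 17 was past 2-fold, and their median log2 ratio was −0.04 (mean 0.05). Glce, which modifies the sugar chain, was at 5.15 in the Ascl2 library and at 3.49 in the empty-vector library (0.45). Ext2, which extends the chain, was at 19.2 with Ascl2 and at 24.3 with the empty vector (−0.32).

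Tnfrsf17 (chromosome 16, 11313232 to 11320074) encodes BCMA, a receptor for the survival factors BAFF and APRIL, and had no row. The other receptors of these factors were abundant. Tnfrsf13b, which encodes TACI, was at 107 in the Ascl2 library and at 145 in the empty-vector library (−0.44). Tnfrsf13c, the BAFF receptor, was at 226 in the Ascl2 library and at 205 in the empty-vector library (0.14). Of 9 receptor and signalling genes that passed the filter, 3 had a ratio above 0, against 48.4% of all genes, and none was past 2-fold. The list's median of −0.05 turned to 0.04 when the libraries were scaled to the same total without immunoglobulin genes and Pcdh15. The median over all genes moved from −0.01 to 0.07 with that rescaling. With the trend with genomic span removed the list's median was 0.029, beside 0.005 over all genes, so it has no stable direction. Pcdh15, a protocadherin gene, was left out of the rescaled total because its value was 26003 in the Ascl2 library and 481 in the empty-vector library.

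Among the regulators that act upstream of the secretory genes, Prdm1 had the highest ratio of those listed. Prdm1 was at 9.23 in the Ascl2 library and at 3.10 in the empty-vector library (log2 ratio 1.32). Bhlha15, a factor that builds secretory capacity, was at 4.25 with Ascl2 and at 1.65 with the empty vector (0.99), or 2.57 times as high without the pseudocount and just short of 2-fold with it. Xbp1 was at 272 in the Ascl2 library and 238 in the empty-vector library (0.20), and Irf4 at 108 with Ascl2 and 88.3 with the empty vector (0.29). The coactivator gene Pou2af1 was at 805 in the Ascl2 library and at 682 in the empty-vector library (0.24). The protein-sorting gene Hid1 was at 4.99 with Ascl2 and 1.43 with the empty vector (1.30). Prdm1, Bhlha15 and Hid1 have low values, and the spread among genes of like level was not computed for them.

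Of 26 plasma cell regulators and surface genes that passed the filter, 20 had a ratio above 0, against 48.4% of all genes. At least 2-fold higher were 2 (Prdm1 and Hid1), against 1.53% of all genes. None was at least 2-fold lower, against 0.716%, and the list's median log2 ratio was 0.23. Genes that plasma cells silence, such as Pax5, went both ways. Of 24 measured, 15 had a ratio below 0, against 6338 of all 12283 genes. None was at least 2-fold lower, against 0.716% of all genes, and 1 was at least 2-fold higher, against 1.53%. The list's median of −0.06 turned to 0.04 with the same rescaling, while that of all genes turned from −0.01 to 0.07. Without rescaling the list's mean was 0.01. The gene past 2-fold was Cr2, a complement receptor, at 30.5 in the Ascl2 library and 7.35 in the empty-vector library (1.91). Bach2, which represses Prdm1, was at 13.0 with Ascl2 and at 7.06 with the empty vector (0.80), while Id3 was at 10.4 in the Ascl2 library and 16.3 in the empty-vector library (−0.61).

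Markers of other cells stand beside these medians. The 9 listed myeloid markers had a median log2 ratio of 0.21, with 8 of 9 above 0, against 48.4% of all genes. Vcan was past 2-fold at 1.40 in the Ascl2 library and 0.0941 in the empty-vector library. Fcer1g was at 9.83 with Ascl2 and 5.71 with the empty vector, and Cd68 at 10.8 in the Ascl2 library and 16.2 in the empty-vector library. The myeloid genes are known from other white cells and are not part of the secretory set. Whether their difference and that of the members have a common source was not tested. The 8 B cell markers had a median of −0.13, with 2 of 8 above 0, against the same share of all genes.

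**Figure D4:**
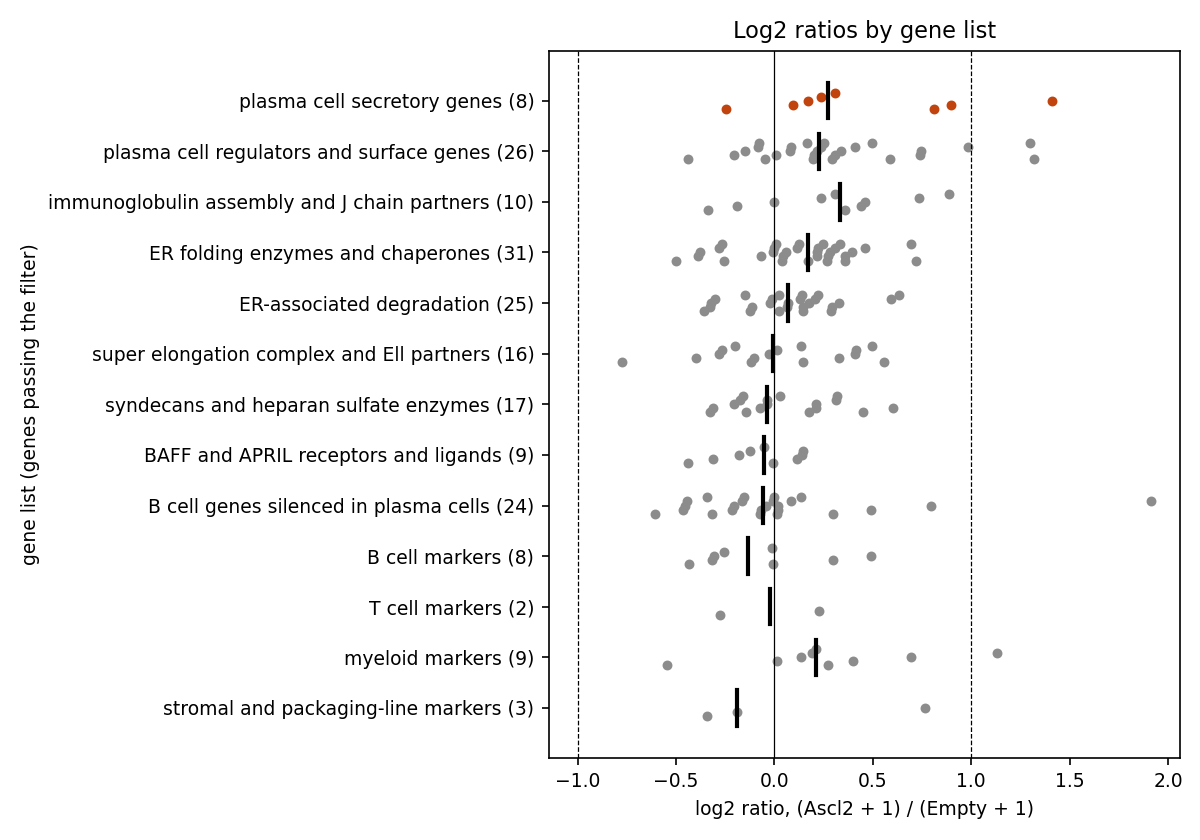
Log2 ratios (Ascl2 over empty vector) of the genes that passed the filter in each of 13 gene lists, with the number of genes in brackets, 1 point per gene and a black bar at the median. The secretory members have their bar at 0.27, with Jchain, Fkbp11 and Derl3 apart at the right. The lists of plasma cell regulators, antibody assembly, ER folding and myeloid genes have bars from 0.17 to 0.34, and the other 8 have bars from −0.19 to 0.07.

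The order of the members by ratio was compared over 8 ways of scaling and pseudocount. Jchain ranged from 1.38 to 1.51 and was past 2-fold in all 8. Fkbp11 ranged from 0.65 to 1.07 and was past 2-fold in 1 of them, with the span trend removed. Derl3 ranged from 0.66 to 0.98, and Sdc1 from −0.34 to −0.12. Ell2, Creld2, Txndc5 and Mzb1 stayed between 0.07 and 0.39, and 7 members had a ratio above 0 in each of these settings. The share of all genes above 0 ran from 45.1% to 59.4% over the same settings. Jchain had the highest ratio and Sdc1 the lowest in all 8. With a pseudocount of 5, Derl3 and Fkbp11 changed places, at 0.66 and 0.65. With the span trend removed, Creld2 (0.37) and Mzb1 (0.27) passed Ell2 (0.23), and Txndc5 followed at 0.16. The other settings kept the order obtained with a pseudocount of 1.

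**Figure D5:**
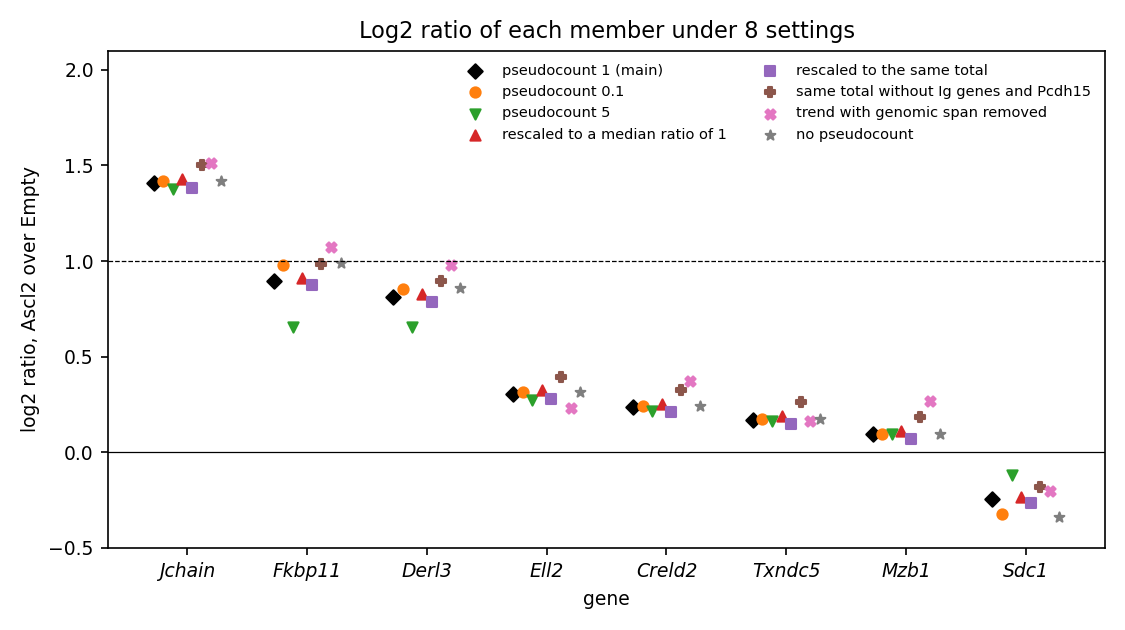
Log2 ratio of each of the 8 members (RVKM-Ascl2 over RVKM-Empty) under 8 settings of pseudocount and scaling, with dashed and solid lines at 1 and 0. Jchain stays above the dashed line and Sdc1 below the solid line, and the points of Fkbp11 and Derl3 spread most, from 0.65 to 1.07 and from 0.66 to 0.98.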

How the data were processed

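Per the labels' protocols, Trizol was used to extract total RNA and a company built the libraries. The authors deposited 1 signal value per gene, taken here as an abundance relative to depth. Whether the unit is FPKM or TPM, and which quantifier, gene models and strand setting lie behind it, are not stated in the labels or file headers. The submitters' processing notes name mm10, Trim Galore, Bowtie2, Picard and MACS2 without roles. The lowest values share no common step (199 distinct among the 200 lowest with the empty vector), so they are not read counts scaled by depth alone, and scaling by gene length is assumed wherever levels of different genes are set side by side. No gene was at 0, and each reached 0.475 in at least 1 library.

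Without counts the depth of each library is unknown and counting error has no interval here. Among 1842 genes under 1.2 in both libraries, the commonest ratio of Ascl2 to empty-vector values was 1.14 to 1.15 (31 genes, against a median of 10 in intervals of that width), so the Ascl2 library appears slightly shallower. None of the members is among the 7 genes with more than 6 significant digits.

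Groups came from the sample titles. Genes that reached 1 in either library were kept, and log2 ratios used a pseudocount of 1, with 2-fold as the threshold. Genes of like level are those whose geometric mean lay within 2-fold. No p-value was computed, since each group has 1 library. In the tables, 20 symbols had been turned into dates and were restored by identifier. The members and the 12 other lists, 3 of them markers of other cell types, were chosen with earlier results of these data known, and some lists share genes. Named genes are the members, their closest paralogs and 4 regulators. In each list, genes past 2-fold and the 4 with the largest absolute log2 ratio were added. Of these, the text gives the ones that bear on a member. It also names genes outside this rule, among them Iglc2, Iglc3, Igha, Fkbp9 and Txndc16. Motifs were searched in RefSeq promoter windows on GRCm38.p6. Protein sequences were not used here. Python 3.11.15, numpy and pandas were used, and the steps were tested on simulated data. Alternatives were other pseudocounts, filters, thresholds and scalings, the mean, and removal of the trend with genomic span.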

Additional observations from a re-analysis of the deposited data

How the results depend on the processing

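No paired analysis was possible because each group has 1 library, and no library could be left out. The count of members at least 2-fold higher was 1, and became 2 with the trend with genomic span removed, 3 at a 1.5-fold threshold and 0 at a 3-fold threshold. The members' median of 0.27 became a mean of 0.46 and otherwise stayed between 0.24 and 0.36. With the span trend removed the antibody assembly median was 0.50, the myeloid 0.38, the stromal −0.046 and the BAFF and APRIL 0.029. Rescaling to the same total without immunoglobulin genes and Pcdh15 gave 0.040 for the BAFF and APRIL list and 0.035 for genes silenced in plasma cells, whose mean was 0.0089. Over all genes that rescaling gave a median of 0.069. The myeloid median was 0.40 with a pseudocount of 0.1, 0.10 with 5 and 0.42 with none, the last chosen after seeing the data. Without a filter the T cell median was −0.28 and the stromal 0.015, and the stromal mean was 0.078. The other 144 of 161 values for counts and medians kept their size within 1.5 times or 0.1, though medians near 0 could still change sign. With that rescaling the syndecan median went from −0.037 to 0.037 and the super elongation median from −0.008 to 0.078. The T cell median went from −0.0245 to 0.063. The causes of the shifts were not tested. Over all genes, 188 were at least 2-fold higher and 88 lower, against 242 and 49 with the span trend removed, 370 and 220 with a pseudocount of 0.1, 103 and 20 with 5, 409 and 243 with none, 615 and 530 at 1.5-fold, and 41 and 15 at 3-fold. Unknown depth limits Sdc1 most, whose values are the lowest.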

Other observations

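Genes with E-boxes upstream had ratios centred close to those of all genes with a window, and no test was possible. Of the 1158 filtered genes whose window holds CAGCTG, 47.8% were above 0 on the log2 ratio, their median being −0.02, and 9 were at least 2-fold higher and 5 lower with Ascl2. For CAGGTG the share was 43.7% of 1527 genes with a median of −0.05, and 14 were at least 2-fold higher and 10 lower. For CANNTG the share was 46.6% of 5273 genes with a median of −0.02, and 45 were at least 2-fold higher and 21 lower. For ACGTGG it was 46.1% of 976 genes with a median of −0.03, and 4 were at least 2-fold higher and 3 lower. For all 8629 filtered genes with a window the median was −0.02. Over all 12283 filtered genes, with or without a window, 48.4% were above 0. Of those 12283 genes, 188 (1.53%) were at least 2-fold higher and 88 (0.716%) lower. These shares include genes without a window, and the 2-fold shares of the 8629 genes with a window were not computed. The 2-fold counts by motif therefore have no like share beside them.

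The rows of the deposited tables run nearly in order of the ratio between the libraries. At 98.5% of steps from a row to the next, the ratio of the Ascl2 to the empty-vector value did not fall.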
